A study of Homo sapiens with 18 samples.

Results

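The unfolded protein response and its ATF4 branch were followed through 44 genes. These were taken by gene symbol from a fixed list, chosen with earlier results of these data known. They comprise 10 endoplasmic reticulum (ER) folding factors, 7 genes of ER-associated degradation, 4 genes for the stress sensors and XBP1, 11 genes for ATF4 and its stress targets, 8 genes of amino acid and one-carbon synthesis, and 4 aminoacyl-tRNA synthetase genes. A named feature, the array's probe set for one gene, was found for 28 of the 44, and all 28 passed the filter on low values. The 16 without a named feature were not analysed here: HSPA5, HSP90B1, DNAJB9, DNAJC3, PDIA4 and PDIA6 among the folding factors, HERPUD1, EDEM1 and SYVN1 in degradation, CHAC1, CEBPB, CEBPG, PPP1R15A and NUPR1 among the stress targets, and MTHFD2 and ALDH1L2 in one-carbon synthesis. HYOU1 and WARS1 each had 2 features, and the one with the higher mean over the 18 arrays was used.

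Of the 18 arrays (Affymetrix Human Gene 2.0 ST), each of 6 groups of established breast cancer cells had 3. Arrays labelled SKBR3, a HER2-positive line, came from cells given a control ASO or an anti-LINC01269 ASO. Arrays labelled MDA-MB-231 and MDA-MB-468, both triple-negative lines, came from cells given a control ASO or an anti-AL078604.2 ASO. An ASO is an antisense oligonucleotide. These were GapmeRs, which direct cleavage of the RNA they pair with, and all groups, controls included, received 15 nM with a transfection reagent for 48 h. Only 1 ASO per target was arrayed, and the labels do not say whether replicates were separate cultures, so the tests measure the spread between these arrays, which may be technical.

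Replicate arrays correlated at 0.985 to 0.992. Markers ran only partly with the line labels. The epithelial gene EPCAM, known to be low in MDA-MB-231, stood at the 98.9, 99.2 and 99.3 percentile of all features in the control arrays labelled SKBR3, MDA-MB-231 and MDA-MB-468, while RB1, lost in MDA-MB-468, stood at 48.0, 60.5 and 24.9. ERBB2, which defines SKBR3, has no named feature, and its amplicon neighbour GRB7 was not higher in the arrays labelled SKBR3 (79.2, 81.3 and 78.9). EGFR, which MDA-MB-468 cells carry in extra copies, stood at 98.97, 98.2 and 98.7, and vimentin (VIM), a mesenchymal gene known to be high in MDA-MB-231, at 76.3, 76.7 and 82.4. The basal keratin gene KRT5 was highest in the arrays labelled MDA-MB-468 (69.8, 73.6 and 85.8), and AXL, known to be high in MDA-MB-231, lowest there (80.9, 83.2 and 60.3). Knockdown of either long non-coding RNA was not analysed here, because neither has a named feature. Lines are named below only as the arrays are labelled. In such bulk RNA, fewer cells of a kind and less RNA per cell cannot be told apart.

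When misfolded proteins collect in the ER, the sensors IRE1 (ERN1), PERK (EIF2AK3) and ATF6 set off separate arms of the response. IRE1 splices XBP1 mRNA, ATF6 is cleaved to release a transcription factor, and together they raise chaperones and the machinery that exports bad proteins for degradation. PERK phosphorylates the translation factor eIF2, which slows protein synthesis but favours translation of ATF4, and ATF4 then switches on genes for amino acid synthesis, tRNA charging and, if stress lasts, cell death. Amino acid shortage and other stresses reach ATF4 through other eIF2 kinases, so its targets can move without the chaperones. Secretory and breast cancer cells are known to lean on both branches.

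The branches differ in the short sequences that their factors read, and these are shown because the genes below are grouped by branch. The 3 motifs below were searched on both strands of the RefSeq promoter windows (GRCh38.p14, 250 bases before to 50 after each gene's start), which covered 38 of the 44 genes in 52 windows. The ER stress response element (ERSE) was searched as CCAAT and CCACG spaced by 9 bases, ERSE-II as ATTGG and CCACG spaced by 1 base, and the ATF4-type element as TGATGNAA. ERSE was found in 5 of the 52 windows (9.62%) and in 0.0769% of all 35116, ERSE-II in 3 (5.77%) and in 0.0541%, and TGATGNAA in 7 (13.5%) and in 3.62%. ERSE lay in 4 of 12 windows of folding factors and 1 of 5 of sensors, in 0 of 5 of degradation genes, and in 0 of 17 windows of ATF4 and its stress targets, 0 of 6 of synthesis enzymes and 0 of 7 of synthetases. ERSE-II lay in 2 of 12 windows of folding factors and 1 of 5 of degradation genes, and in none of the other groups. TGATGNAA lay in 3 of 17 windows of ATF4 and its stress targets, 1 of 6 of synthesis enzymes and 2 of 7 of synthetases. It also lay in 1 of 5 windows of degradation genes, and in 0 of 12 of folding factors and 0 of 5 of sensors. HERPUD1 carried both an ERSE-II and a TGATGNAA site. No sites of different motifs overlapped in these genes. A match describes these letters and is not shown to be a bound site. The genes were listed because they belong to these branches, so the higher shares among them are not an independent result.

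The 250 bases before one annotated start of XBP1, the member with the most negative difference in both anti-AL078604.2 comparisons, lie at chr22:28800570-28800819 on the minus strand. Its ERSE is in capitals.
XBP1: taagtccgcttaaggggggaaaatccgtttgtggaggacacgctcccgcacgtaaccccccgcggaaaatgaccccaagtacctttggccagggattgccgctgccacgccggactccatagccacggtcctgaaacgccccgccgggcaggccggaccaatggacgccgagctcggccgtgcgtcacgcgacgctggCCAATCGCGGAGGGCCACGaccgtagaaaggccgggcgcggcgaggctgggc

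Sites of other measured members are given with the motif in capitals, in the direction of the gene. CRELD2 (chr22:49918549-49918577) carries an ERSE on the opposite strand. SDF2L1 (chr22:21642105-21642133) carries 1 ERSE-II on the opposite strand and HYOU1 carries 2, of which the one nearer the start is shown (chr11:119057265-119057293).
CRELD2: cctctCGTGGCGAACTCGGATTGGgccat
SDF2L1: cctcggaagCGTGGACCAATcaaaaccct
HYOU1: ggcctgggaCGTGGTCCAATgagtacgcg

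TGATGNAA lies on the gene's strand in ASNS (chr7:97872458-97872487) and ATF3 (chr1:212565205-212565234), and on the opposite strand in AARS1 (chr16:70289675-70289704) and GARS1 (chr7:30594834-30594863).
ASNS: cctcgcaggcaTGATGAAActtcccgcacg
ATF3: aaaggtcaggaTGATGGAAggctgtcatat
AARS1: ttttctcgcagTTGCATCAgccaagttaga
GARS1: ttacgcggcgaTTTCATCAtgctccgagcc

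No member passed the test in any comparison. Each ASO was compared with the control ASO of its line by limma over all 29855 tested features, with Benjamini-Hochberg adjustment and a threshold of 0.05. The calls were 0 of 28 members in SKBR3, where 0% of all features were called, 0 of 28 in MDA-MB-231 (0.171%) and 0 of 28 in MDA-MB-468 (0.0067%). The smallest adjusted p of a member was 0.429, 0.0966 and 0.376 in the same order. The values below therefore describe differences that were not called, and higher and lower refer to group means only.

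At an unadjusted limma p under 0.05, the counts were small. In SKBR3, 5 members (17.9%) were higher, DDIT3, STC2, ASNS, PSAT1 and WARS1, beside 4.64% of 11148 named genes, and 2 (7.14%) were lower, ATF6 and SARS1, beside 4.12%. In MDA-MB-231, 1 (3.57%) was higher, ATF3, beside 6.07%, and 3 (10.7%) were lower, XBP1, VLDLR and SEL1L, beside 5.75%. In MDA-MB-468, 1 (3.57%) was higher, MANF, beside 6.3%, and 2 (7.14%) were lower, XBP1 and AARS1, beside 6.01%. The count of higher members stood above its background in SKBR3 and below it in the other 2 lines. In SKBR3 it was 0 without anti-LINC01269 replicate 1 and 2 without control replicate 2. Other counts also rested on single arrays. Lower members in SKBR3 numbered 1 without control replicate 1 or 2 or anti-LINC01269 replicate 1 or 3. In MDA-MB-231, 3 were higher and 5 lower without anti-AL078604.2 replicate 1, 2 were higher without control replicate 2, and 2 were lower without any other single array. In MDA-MB-468, leaving out anti-AL078604.2 replicate 1 gave 6 lower members, leaving out control replicate 1 gave 3, leaving out control replicate 3 gave 0, and each other array gave 1. The higher members there numbered 0 without control replicate 2 and 2 without anti-AL078604.2 replicate 3. Shares of all named genes with an array left out are not given here. These counts therefore cannot be set against a background.

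Members whose 3 ASO arrays all lay beyond the 3 control arrays were counted as well. In SKBR3, 3 members did so upward (DERL2, DDIT3 and PSPH, beside 7.66% of named genes) and 2 downward (DERL3 and ATF6, beside 4.76%). In MDA-MB-231, 1 did so upward (ATF3, beside 10.9%) and 4 downward (XBP1, ATF6, EIF2AK3 and VLDLR, beside 9.62%). In MDA-MB-468, 3 did so upward (MANF, CTH and WARS1, beside 10.1%) and 2 downward (SEL1L and XBP1, beside 9.54%). XBP1 was the 1 member to do so in the same direction in both anti-AL078604.2 comparisons. As shares of the 28 members these are 10.7% and 7.14%, 3.57% and 14.3%, and 10.7% and 7.14%.

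The median difference over the 28 members was 0.043 log2 in SKBR3, 0.036 in MDA-MB-231 and -0.021 in MDA-MB-468, beside medians of 0.014, 0.010 and -0.0035 over all tested features. Members lay on both sides of 0 in each line, with 18, 19 and 10 of 28 above it, beside 16125, 15821 and 14656 of all 29855 features. In MDA-MB-231 leaving out control replicate 1 gave a median of 0.021 and leaving out ASO replicate 3 one of 0.015, and it was 0.0040 under a filter at the 75th percentile, and in MDA-MB-468 it was 0.0092 without anti-AL078604.2 replicate 3.

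**Figure D1:**
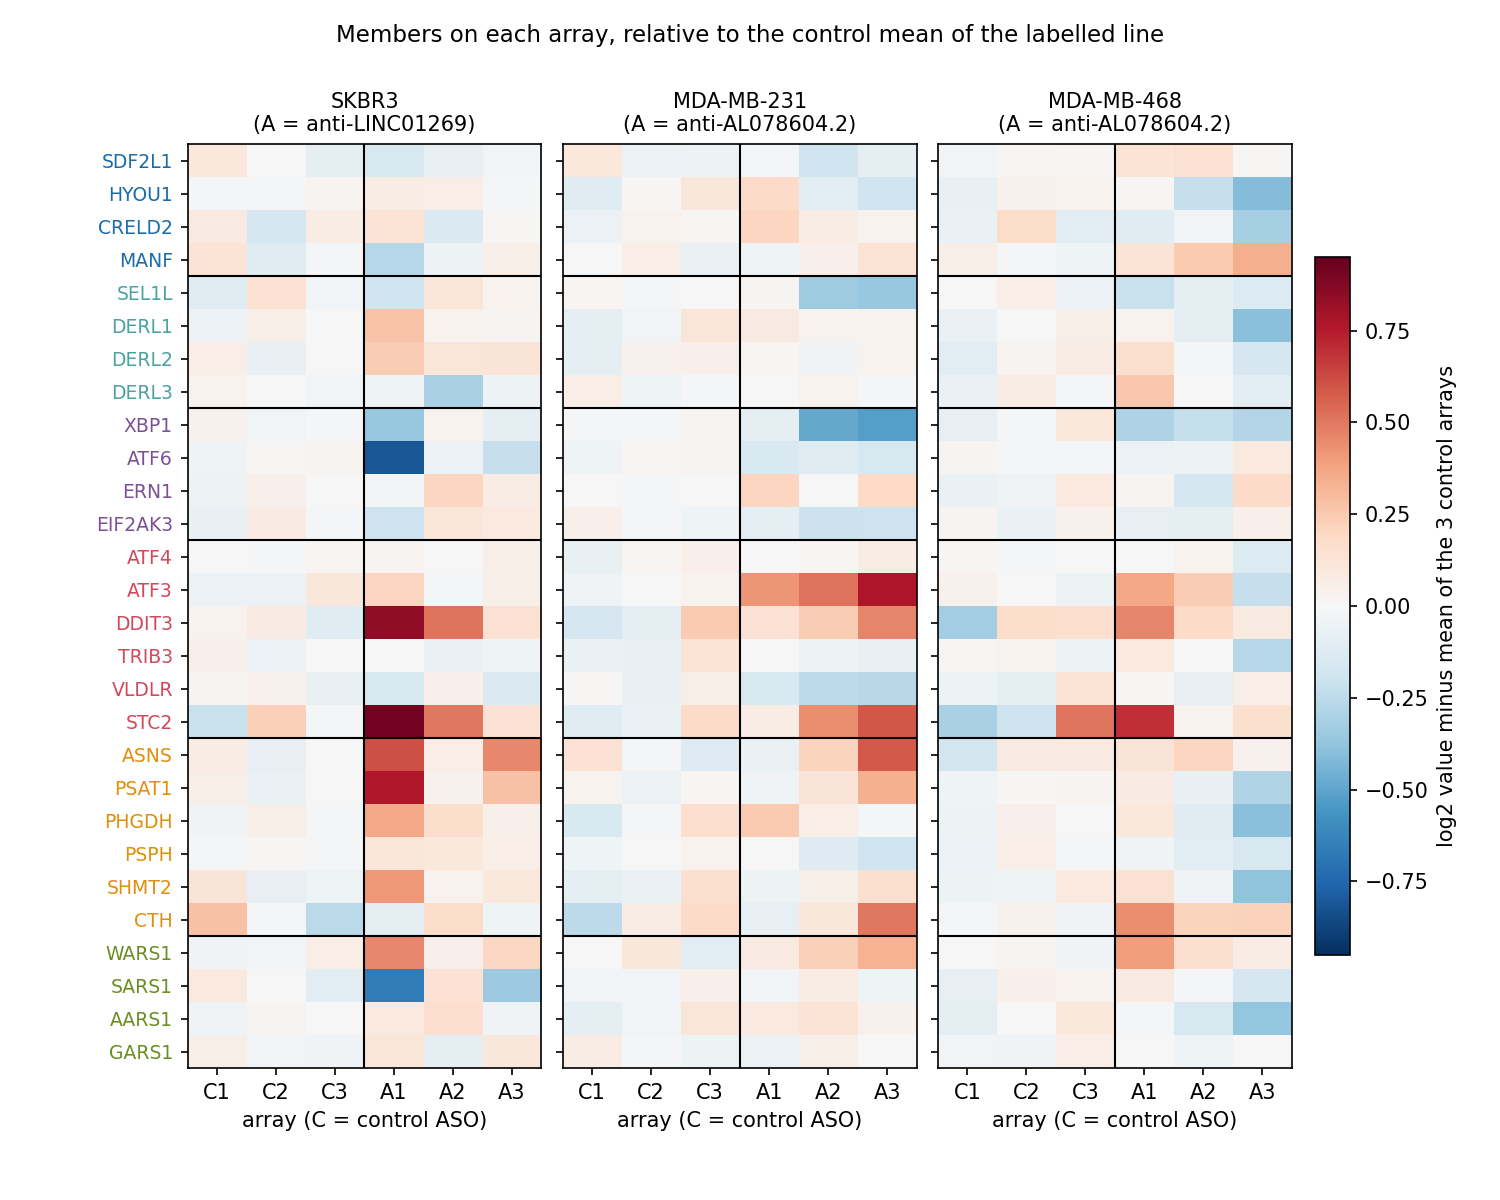
Each cell is the log2 value of one member on one array minus the mean of the 3 control arrays of that labelled line; C1 to C3 are control arrays, A1 to A3 arrays given the anti-lncRNA ASO, and black lines part the role groups. Replicate 1 of the anti-LINC01269 ASO holds the strongest colours, and XBP1 is below the control mean on all 6 anti-AL078604.2 arrays.

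**Figure D2:**
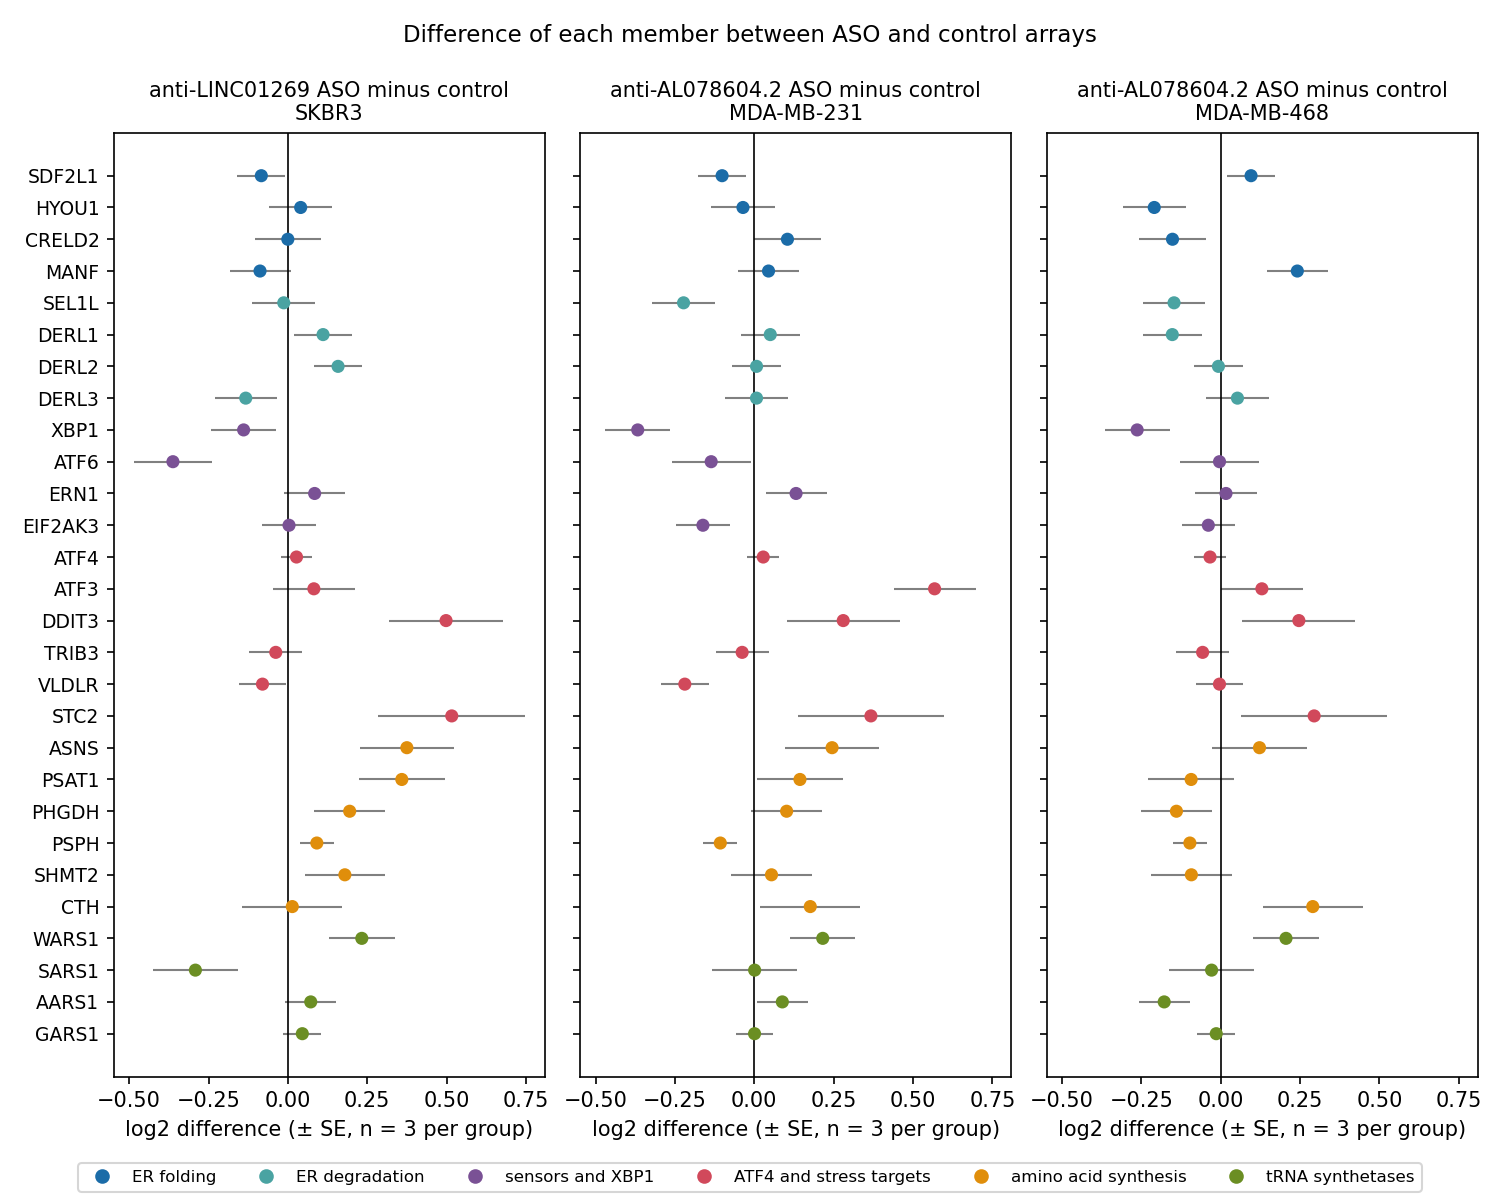
Points are the log2 difference of each of the 28 members between ASO and control arrays, with limma's standard error (n = 3 per group), by labelled line and coloured by role. None passed the test; differences run from -0.36 to 0.52 in SKBR3, -0.37 to 0.57 in MDA-MB-231 and -0.26 to 0.29 in MDA-MB-468.

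Among the sensors, the transcription factor gene XBP1 had the most negative difference of all members in both anti-AL078604.2 comparisons. In MDA-MB-231, XBP1 read 10.16, 10.16 and 10.20 on the control arrays and 10.08, 9.69 and 9.65 on the ASO arrays (-0.37 ± 0.10 log2, adjusted p = 0.175). The ASO arrays all lay below the controls, with replicate 1 close to them and replicates 2 and 3 further down. In MDA-MB-468, XBP1 read 9.63, 9.69 and 9.81 on the control arrays and 9.42, 9.49 and 9.44 on the ASO arrays (-0.26 ± 0.10 log2, adjusted p = 0.376), and the groups again did not overlap.

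XBP1 in SKBR3 read 9.54, 9.48 and 9.49 on control arrays and 9.14, 9.53 and 9.41 on anti-LINC01269 arrays (-0.14 ± 0.10 log2, adjusted p = 0.718). The groups overlapped there, and the lowest value was that of replicate 1, without which the difference was -0.030. Without replicate 2 it was -0.23. The array gives one value for XBP1, so the spliced and unspliced forms cannot be told apart. Without anti-AL078604.2 replicate 1, XBP1 in MDA-MB-231 was called (-0.50 log2, adjusted p = 0.00831), and without replicate 3 its adjusted p was 0.649. Over all alternatives the difference kept its sign in each of these 2 lines, from -0.50 to -0.29 in MDA-MB-231 and from -0.30 to -0.21 in MDA-MB-468.

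ATF6, the membrane-bound sensor that is cleaved to a transcription factor, was the lowest member in SKBR3. ATF6 read 9.35, 9.41 and 9.42 on the control arrays and 8.58, 9.34 and 9.18 on the ASO arrays (-0.36 ± 0.12 log2, adjusted p = 0.429). The ASO arrays lay below the controls, and replicate 1 stood far below the other 2. Without that array the difference was -0.14 (adjusted p = 0.838), and without anti-LINC01269 replicate 2 it was -0.51 and passed (adjusted p = 0.0476).

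In MDA-MB-231, ATF6 read 10.43, 10.48 and 10.49 on the control arrays and 10.32, 10.35 and 10.31 on the ASO arrays, so that the groups did not overlap although the difference was small (-0.14 ± 0.12 log2, adjusted p = 0.831). In MDA-MB-468 the groups overlapped (-0.0038). EIF2AK3, which encodes PERK, was -0.16 without overlap in MDA-MB-231 (adjusted p = 0.6), and 0.0035 and -0.039 in SKBR3 and MDA-MB-468 with overlap. ERN1, which encodes the XBP1-splicing nuclease, was 0.084, 0.13 and 0.017, with overlap in each line. The median over these 4 genes was -0.068, -0.15 and -0.021 in the order SKBR3, MDA-MB-231 and MDA-MB-468. It kept its sign in every alternative in MDA-MB-231, was 0.037 without anti-LINC01269 replicate 1 in SKBR3, and was 0.0023 without anti-AL078604.2 replicate 2 in MDA-MB-468.

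The measured ER folding factors gave small values of mixed sign, with medians over 4 genes of -0.042, 0.0045 and -0.028 in the same order. Each of these medians changed sign in at least 1 alternative. MANF, a secreted ER stress-inducible protein, had the smallest p of the higher members in MDA-MB-468. MANF read 6.46, 6.38 and 6.36 on the control arrays and 6.53, 6.65 and 6.75 on the ASO arrays (0.24 ± 0.096 log2, adjusted p = 0.389). All 3 ASO arrays lay above the controls. MANF was -0.088 in SKBR3 and 0.045 in MDA-MB-231, both with overlap.

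HYOU1, an ER chaperone of the heat shock protein family that aids BiP (HSPA5), was lower on average in MDA-MB-468. HYOU1 read 9.71, 9.83 and 9.82 on the control arrays and 9.79, 9.57 and 9.37 on the ASO arrays (-0.21 ± 0.10 log2, adjusted p = 0.481), and replicate 1 lay among the controls. Without replicate 3 the difference was -0.11, without replicate 1 -0.32. It was 0.04 in SKBR3 and -0.036 in MDA-MB-231. The second HYOU1 feature gave 0.020, -0.0022 and -0.028 in SKBR3, MDA-MB-231 and MDA-MB-468.

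SDF2L1, a stress-inducible ER protein that works with HSPA5 and its co-chaperones, was -0.084, -0.10 and 0.10 in SKBR3, MDA-MB-231 and MDA-MB-468. CRELD2, a secreted stress-inducible disulphide isomerase, was -0.00023, 0.10 and -0.15. Groups overlapped for both genes in each line. Of the 4 measured members with an ERSE or ERSE-II, XBP1 was lower in each line, while SDF2L1, HYOU1 and CRELD2 each had differences of both signs across the lines.

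In ER-associated degradation, SEL1L, which scaffolds the ubiquitin ligase complex that exports misfolded proteins, was lower in both anti-AL078604.2 comparisons. In MDA-MB-231, SEL1L read 9.30, 9.27 and 9.29 on the control arrays and 9.31, 8.95 and 8.93 on the ASO arrays (-0.22 ± 0.099 log2, adjusted p = 0.493), with replicate 1 above all controls and the other 2 below them. Without replicate 1 it was -0.35 (adjusted p = 0.0618). In MDA-MB-468, SEL1L read 9.44, 9.50 and 9.38 on the control arrays and 9.23, 9.35 and 9.31 on the ASO arrays (-0.15 ± 0.099 log2, adjusted p = 0.65), without overlap. In SKBR3 it was -0.013.

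The Derlins form part of the channel through which such proteins leave the ER. DERL2 was 0.16 without overlap in SKBR3 (adjusted p = 0.558), and 0.0071 and -0.0073 in MDA-MB-231 and MDA-MB-468. DERL1 was 0.11, 0.05 and -0.15, and DERL3 -0.13, 0.0069 and 0.053. The median over the 4 degradation genes was 0.049, 0.0070 and -0.077 in SKBR3, MDA-MB-231 and MDA-MB-468. It changed sign in 1 alternative in each of the last 2 lines, at -0.018 without control replicate 1 in MDA-MB-231 and 0.019 without anti-AL078604.2 replicate 3 in MDA-MB-468, and in SKBR3 was 0.0048 without control replicate 1.

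ATF4 mRNA showed little difference. It read 9.80, 9.79 and 9.82 on control and 9.83, 9.81 and 9.86 on anti-LINC01269 SKBR3 arrays, a difference of 0.027 with a 95% interval of -0.079 to 0.13. In MDA-MB-231, ATF4 read 10.77, 10.86 and 10.89 on the control arrays and 10.84, 10.86 and 10.92 on the ASO arrays (0.028, -0.078 to 0.13). In MDA-MB-468, ATF4 read 10.69, 10.66 and 10.67 on the control arrays and 10.67, 10.71 and 10.55 on the ASO arrays (-0.034, -0.14 to 0.072). Groups overlapped in each line, and the intervals leave room for mRNA differences of up to 0.13 log2 upward. ATF4 is controlled largely at translation, which an array of RNA does not measure.

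ATF3, a stress-induced transcription factor that is a target of ATF4 and also an immediate early gene, gave the smallest p of any member. In MDA-MB-231, ATF3 read 6.17, 6.21 and 6.24 on the control arrays and 6.62, 6.72 and 6.97 on the ASO arrays (0.57 ± 0.13 log2, adjusted p = 0.0966, a 1.48-fold difference). All 3 ASO arrays lay above the controls. Without anti-AL078604.2 replicate 1 it passed (0.64, adjusted p = 0.0348). Without replicate 3 it was 0.47 (adjusted p = 0.493), and without any other single array its adjusted p was 0.264 to 0.322.

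In MDA-MB-468, ATF3 read 6.03, 5.998 and 5.95 on the control arrays and 6.36, 6.24 and 5.77 on the ASO arrays (0.13 ± 0.13 log2, adjusted p = 0.794), where 2 ASO arrays lay above the controls and replicate 3 below them. It was 0.011 without replicate 1, 0.073 without replicate 2 and 0.30 without replicate 3. In SKBR3 it was 0.082. The response of ATF3 in MDA-MB-468 minus that in MDA-MB-231 was -0.44 ± 0.18 log2 and did not pass (limma adjusted p = 0.998).

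DDIT3, which encodes the pro-apoptotic factor CHOP, had a higher mean after each ASO and passed in no line. In SKBR3, DDIT3 read 4.71, 4.75 and 4.56 on the control arrays and 5.51, 5.18 and 4.81 on the ASO arrays (0.50 ± 0.18 log2, adjusted p = 0.438). The groups did not overlap, and the ASO arrays ran from 4.81 to 5.51 with replicate 1 highest. Without that array it was 0.33. In MDA-MB-231 it was 0.28 ± 0.18 and in MDA-MB-468 0.25 ± 0.18, both with overlap. The MDA-MB-468 value was 0.081 without control replicate 1, the lowest of its controls, and 0.14 without anti-AL078604.2 replicate 1. DDIT3 stood near the middle of all features in the control arrays (percentiles 51.9, 66.7 and 53.4 in SKBR3, MDA-MB-231 and MDA-MB-468).

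STC2, a secreted glycoprotein and target of the PERK-ATF4 branch, was also higher on average in each line. It read 6.77, 7.21 and 6.97 on control and 7.90, 7.49 and 7.12 on anti-LINC01269 arrays (0.52 ± 0.23 log2, adjusted p = 0.525), with replicate 1 highest and replicate 3 inside the control range. Without replicate 1 it was 0.32. In MDA-MB-231 it was 0.37 ± 0.23 and in MDA-MB-468 0.29 ± 0.23. Its control MDA-MB-468 arrays ran from 7.59 to 8.41, a wider spread than the difference. Leaving out 1 array there gave 0.095 (without anti-AL078604.2 replicate 1) to 0.55 (without control replicate 3).

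VLDLR, a lipoprotein receptor induced through PERK and ATF4, was lower on average in MDA-MB-231. VLDLR read 9.07, 8.99 and 9.11 on the control arrays and 8.91, 8.81 and 8.79 on the ASO arrays (-0.22 ± 0.075 log2, adjusted p = 0.304), without overlap. It was -0.08 in SKBR3 and -0.0039 in MDA-MB-468. TRIB3, a pseudokinase that restrains ATF4 and CHOP signalling and a sensitive target of both, was -0.038, -0.038 and -0.057 in SKBR3, MDA-MB-231 and MDA-MB-468. Its 95% intervals ran from -0.21 to 0.14, -0.21 to 0.14 and -0.23 to 0.12. The 6 measured genes of this group had medians of 0.054, 0.15 and 0.063 in the same order. Under the filter at the 75th percentile, which left out ATF3 and DDIT3, the medians were -0.0056, -0.0051 and -0.019. In SKBR3 it was 0.025 without anti-LINC01269 replicate 1 and 0.084 to 0.085 without control replicate 3 or anti-LINC01269 replicate 2, and in MDA-MB-231 0.097 without control replicate 1 or anti-AL078604.2 replicate 3. In MDA-MB-468 it was 0.028 without control replicate 1, 0.00043 without anti-AL078604.2 replicate 1 and 0.18 without replicate 3.

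**Figure D3:**
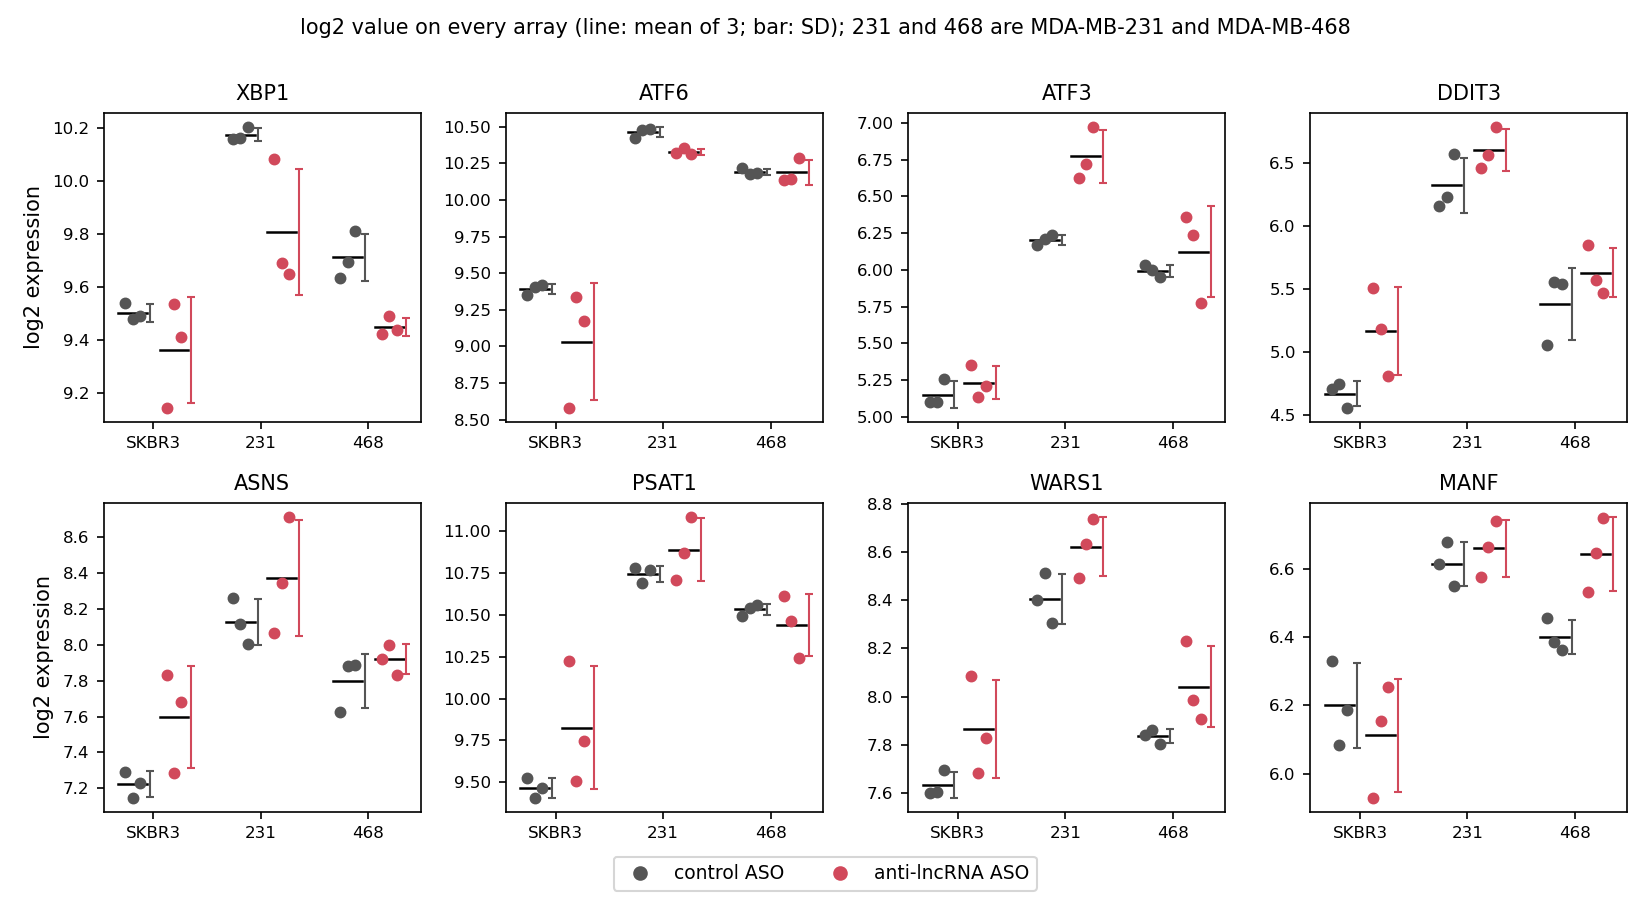
Dots are the log2 values of 8 members on each array, with the mean of 3 arrays as a line and the SD as a bar; control ASO is grey and the anti-lncRNA ASO red. Array medians differ by line, so only dots of one line can be compared. XBP1 separates the groups in MDA-MB-231 and MDA-MB-468, and ATF6 in SKBR3 and MDA-MB-231. ATF3 does so in MDA-MB-231, DDIT3 in SKBR3, and MANF and WARS1 in MDA-MB-468.

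Amino acid and one-carbon synthesis enzymes had higher means in SKBR3 after the anti-LINC01269 ASO, 6 of 6 beside 5847 of 11148 named genes. The median of the enzymes was 0.19 log2, beside 0.014 for all features. None of the 6 passed. ASNS, which makes asparagine, read 7.29, 7.15 and 7.23 on control and 7.83, 7.28 and 7.68 on ASO arrays (0.37 ± 0.15 log2, adjusted p = 0.484). PSAT1, the transaminase of serine synthesis, read 9.53, 9.41 and 9.47 and 10.22, 9.51 and 9.75 (0.36 ± 0.14 log2, adjusted p = 0.461). In both genes replicate 1 was highest and replicate 2 overlapped the controls.

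PHGDH, the first enzyme of serine synthesis, was 0.19, the mitochondrial serine hydroxymethyltransferase gene SHMT2 0.18 and the serine phosphatase gene PSPH 0.091, the last without overlap. CTH, which makes cysteine from cystathionine, was 0.014, and ran from -0.12 to 0.15 over the alternatives with 4 changes of sign. The mean of the 6 enzymes relative to the control mean was 0.36 on anti-LINC01269 replicate 1, 0.095 on replicate 2 and 0.15 on replicate 3, beside -0.054 to 0.081 on the control arrays. Without replicate 1 the median was 0.095, ASNS was 0.26 and PSAT1 0.16. What sets replicate 1 apart was not tested.

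The enzymes were less uniform in the other lines. In MDA-MB-231, 5 of 6 had a higher mean, beside 5976 of 11148 named genes, and the median of the enzymes was 0.12. Leaving out control replicate 1 gave a median of 0.041, and leaving out ASO replicate 3 one of 0.031. There ASNS read 8.26, 8.12 and 8.002 on the control arrays and 8.06, 8.34 and 8.71 on the ASO arrays (0.25 ± 0.15 log2, adjusted p = 0.684), with replicate 1 inside the control range and replicate 3 highest. It was 0.076 without replicate 3 and 0.40 without replicate 1. PSAT1 was 0.14, PHGDH 0.10, SHMT2 0.054, CTH 0.18 and PSPH -0.11.

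In MDA-MB-468, 2 of 6 enzymes had a higher mean, beside 5613 of 11148 named genes, and the median of the enzymes was -0.093. CTH was the higher of these 2 enzymes, with 5.58, 5.63 and 5.56 on control and 6.03, 5.80 and 5.81 on ASO arrays (0.29 ± 0.16 log2, adjusted p = 0.546), without overlap. ASNS read 7.62, 7.88 and 7.89 and 7.92, 8.0002 and 7.83 (0.12 ± 0.15 log2, adjusted p = 0.841), with overlap, and was 0.036 without control replicate 1 and 0.081 without anti-AL078604.2 replicate 2. PSAT1 was -0.093, PHGDH -0.14, SHMT2 -0.092 and PSPH -0.097. Replicate 3 was the lowest ASO array, with a mean over the 6 enzymes of -0.16, beside 0.14 on replicate 1 and 0.014 on replicate 2, and without it the median was 0.029. Without replicate 1 it was -0.15.

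Of the aminoacyl-tRNA synthetases, which load tRNAs with amino acids, WARS1 (tryptophan) had a higher mean in each line by 0.21 to 0.23 log2. In SKBR3, WARS1 read 7.60, 7.61 and 7.69 on the control arrays and 8.09, 7.68 and 7.83 on the ASO arrays (0.23 ± 0.10 log2, adjusted p = 0.519). In MDA-MB-231, WARS1 read 8.40, 8.51 and 8.31 on the control arrays and 8.49, 8.63 and 8.74 on the ASO arrays (0.22 ± 0.10 log2, adjusted p = 0.542). In MDA-MB-468, WARS1 read 7.84, 7.86 and 7.80 on the control arrays and 8.23, 7.99 and 7.91 on the ASO arrays (0.21 ± 0.10 log2, adjusted p = 0.509). The groups did not overlap in MDA-MB-468 and overlapped in the others by 1 ASO array each. Without ASO replicate 1 the difference was 0.12 in SKBR3 and 0.11 in MDA-MB-468. WARS1 is also an interferon-induced gene. Its second feature gave -0.045, 0.19 and 0.089 in SKBR3, MDA-MB-231 and MDA-MB-468, so the 2 features disagreed in sign in SKBR3.

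SARS1 (serine) was lower in SKBR3. SARS1 read 8.24, 8.15 and 8.04 on the control arrays and 7.48, 8.28 and 7.80 on the ASO arrays (-0.29 ± 0.13 log2, adjusted p = 0.537). Replicates 1 and 3 lay below the controls and replicate 2 above them. Without replicate 2 the difference was -0.50 and passed (adjusted p = 0.0256), and without replicate 1 it was -0.11 (adjusted p = 0.9999). SARS1 was 0.001 and -0.029 in MDA-MB-231 and MDA-MB-468.

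AARS1 (alanine) in MDA-MB-468 read 10.90, 10.99 and 11.10 on control and 10.98, 10.85 and 10.63 on ASO arrays (-0.18 ± 0.081 log2, adjusted p = 0.455), with replicate 3 lowest and replicate 1 inside the control range. Without replicate 3 it was -0.083. It was 0.072 in SKBR3 and 0.088 in MDA-MB-231. GARS1 (glycine) was 0.045, 0.0007 and -0.014. The 4 synthetases had medians of 0.059, 0.045 and -0.021 in SKBR3, MDA-MB-231 and MDA-MB-468. In MDA-MB-468 it was 0.0027 without control replicate 3 and 0.0075 without anti-AL078604.2 replicate 3.

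**Figure D4:**
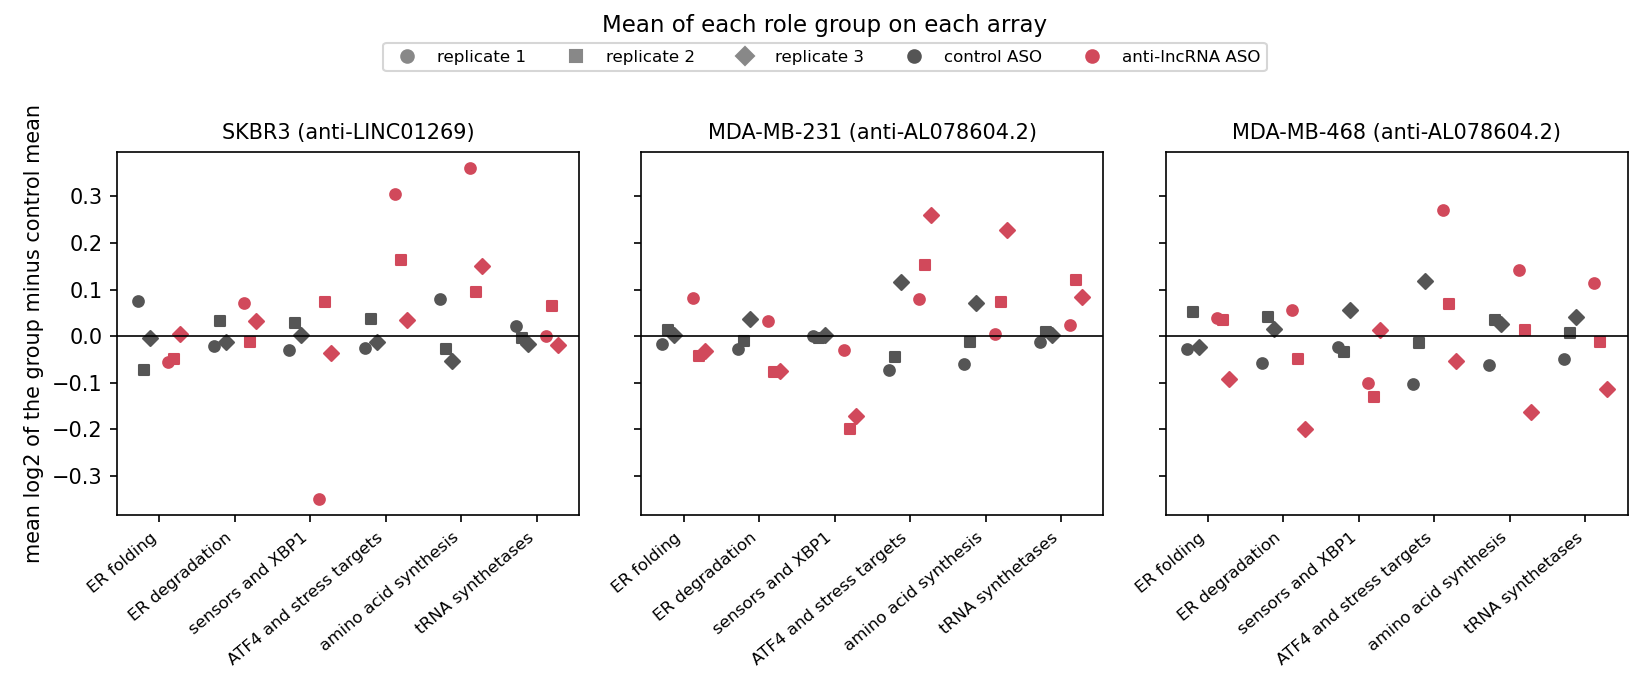
Each mark is the mean log2 value of a role group on one array minus the mean of the 3 control arrays of that labelled line; shapes give the replicate, grey is control ASO and red the anti-lncRNA ASO. On anti-LINC01269 replicate 1 the synthesis enzymes stand at 0.36 and the sensors at -0.35, further out than on the other arrays of SKBR3.

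The responses to the anti-AL078604.2 ASO in the 2 triple-negative lines have separate control arrays, so their difference could be tested. No member passed (0 of 28, beside 0% of all features). At an unadjusted p under 0.05, 0 members had a higher response in MDA-MB-468, beside 1.91% of named genes, and 2 (7.14%) a lower one, ATF3 and AARS1, beside 2.31%. For AARS1 the responses were 0.088 in MDA-MB-231 and -0.18 in MDA-MB-468, a difference of -0.27 ± 0.11 (adjusted p = 0.998). In MDA-MB-231, AARS1 read 10.84, 10.90 and 11.04 on control and 11.02, 11.06 and 10.97 on ASO arrays, with overlap. For XBP1 the responses differed by 0.10 ± 0.15 (adjusted p = 0.998), less than the error.

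The next members by p in that difference were CRELD2 on the lower side (-0.26 ± 0.15) and VLDLR (0.22 ± 0.11), SDF2L1 (0.20 ± 0.11) and MANF (0.20 ± 0.14) on the higher side, each with an adjusted p of 0.998. CRELD2 read 6.91, 7.004 and 6.99 on control and 7.17, 7.04 and 7.003 on ASO arrays in MDA-MB-231. In MDA-MB-468 it read 6.73, 6.97 and 6.68 on control and 6.68, 6.76 and 6.48 on ASO arrays. The ASO arrays lay above or within the controls in the first line and within or below them in the second.

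SDF2L1 read 7.55, 7.39 and 7.40 on control and 7.42, 7.25 and 7.35 on ASO arrays in MDA-MB-231, and 6.84, 6.88 and 6.89 and 7.001, 7.01 and 6.88 in MDA-MB-468. VLDLR in MDA-MB-468 read 8.85, 8.82 and 9.03 on control and 8.91, 8.82 and 8.96 on ASO arrays, and MANF in MDA-MB-231 6.61, 6.68 and 6.55 and 6.57, 6.66 and 6.74. The groups overlapped in each of these.

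Other genes of the same pathways, from lists beside the 44, gave 0 calls in each comparison. These lists too were chosen with earlier results of these data known, so their counts are not an independent test. Of 25 further ER folding and secretion genes, 12 had a tested feature. At an unadjusted p under 0.05, 0 were higher and 1 (8.33%) lower in SKBR3 (ERLEC1, a lectin of ER degradation, -0.24). In MDA-MB-231, 0 were higher and 2 (16.7%) lower, the stress transcription factor gene CREB3L2 (-0.38) and the chaperone gene CALR (-0.10). In MDA-MB-468, 0 were higher and 0 lower. Of named genes, 4.64%, 6.07% and 6.3% were higher and 4.12%, 5.75% and 6.01% lower in SKBR3, MDA-MB-231 and MDA-MB-468. The medians of the 12 genes were -0.018, -0.036 and -0.0065.

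Of 35 further ATF4 and integrated stress response genes, chosen with earlier results of these data known, 21 had a tested feature. In SKBR3, 19 of these had a higher mean, beside 5847 of 11148 named genes. There the median was 0.15, and 8 (38.1%) were higher at an unadjusted p under 0.05 and 0 lower, beside the 4.64% and 4.12% of named genes given above. The 3 with the smallest p were the mitochondrial PEP carboxykinase gene PCK2 (0.30 ± 0.0997, adjusted p = 0.424), the isoleucyl-tRNA synthetase gene IARS1 (0.22 ± 0.0759, 0.429) and the tyrosyl-tRNA synthetase gene YARS1 (0.32 ± 0.111, 0.433). The others were the synthetase genes EPRS1, TARS1 and LARS1, the proline synthesis gene PYCR1 and the eIF2 kinase gene EIF2AK2, from 0.12 to 0.23. Without anti-LINC01269 replicate 1 the count was 1, and without control replicate 3 it was 4, with no background share given for either.

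In MDA-MB-231, 3 of these 21 (14.3%) were higher at that level and 0 lower, beside 6.07% and 5.75% of named genes. The 3 were KLHL24 (0.35 ± 0.10, adjusted p = 0.194), the secreted stress cytokine gene GDF15 (0.60 ± 0.21, 0.306) and the cysteinyl-tRNA synthetase gene CARS1 (0.18 ± 0.0844, 0.526). The count was 1 without anti-AL078604.2 replicate 2, again with no background share given. In MDA-MB-468, 0 were higher and 0 lower, beside 6.3% and 6.01% of named genes. The median of the 21 was -0.025 there and 0.065 in MDA-MB-231.

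Between the labelled lines, control levels of the members were compared on quantile-normalized values, because array medians differ by line in the deposited values. These are levels with an SD over 3 arrays and without a test. The range between the 3 line means had a median of 0.35 log2 over the 28 members and 0.35 over all named genes, and 1 member (3.57%) ranged over at least 1 log2, beside 2.84% of named genes. That member was SDF2L1, at 8.20 ± 0.0933 in SKBR3, 7.14 ± 0.0887 in MDA-MB-231 and 6.74 ± 0.031 in MDA-MB-468, without overlap between neighbours. PHGDH, which is amplified in some breast cancers, ran the other way, at 9.01 ± 0.0399, 9.44 ± 0.14 and 9.92 ± 0.0582, again without overlap. XBP1, a luminal factor in breast tissue, was 10.00 ± 0.0315, 9.82 ± 0.0251 and 9.55 ± 0.0964. ATF4 was 10.32 ± 0.0237, 10.48 ± 0.0481 and 10.53 ± 0.0165. ASNS was 7.67 ± 0.0945, 7.81 ± 0.13 and 7.66 ± 0.15, which did not differ beyond the spread.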

How the data were processed

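The deposited values are log2 expression per feature, which the authors made with a tool named in the submitters' processing notes as Transcriptome Analysis Console. The log2 scale was read from their range (0.41 to 13.84). Its version and normalization, and the build, are not given in the sources used here. Array medians were 4.56 to 4.63 in SKBR3, 5.41 to 5.43 in MDA-MB-231 and 5.21 to 5.24 in MDA-MB-468. Of 53617 features, 16098 had 1 gene symbol in the platform table. The other 37519 had no symbol or several, which were not counted apart, and were treated as unnamed. Features whose mean exceeded the median of all features in at least 1 group were tested (29855; 11148 named genes with 1 feature each). limma 3.58.1 in R 4.3.3 fitted 6 group means to all 18 arrays (12 residual degrees of freedom, intensity trend), with two-sided p-values adjusted by Benjamini-Hochberg over all tested features. Percentiles and quantile-normalized levels are computed here. Precision is limited by having 3 arrays per group. The procedure was also run on simulated data with independent noise on each array. That run held no shift shared by a whole array, so it cannot show how the procedure behaves where single arrays stand apart. The members and lists were chosen with earlier results of these data known.

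Values of every array were given for members with the 3 smallest p in each direction of a comparison, for members without overlap in the same direction in both anti-AL078604.2 comparisons and for XBP1, ATF4, ASNS and WARS1. Those of STC2 in SKBR3, ATF6 in MDA-MB-231 and SEL1L in MDA-MB-468 were added after their values were seen. Alternatives were no filter, a stricter filter, no trend, a robust prior, the line's arrays alone, 2 normalizations, array weights, a replicate block, the mean of a gene's features and leaving out each array.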

Additional observations from a re-analysis of the deposited data

How the results depend on the processing

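Counts of members called moved under array weights, which gave 4 of 28 in MDA-MB-231 and 6 of 28 in MDA-MB-468, beside 8.08% and 17.4% of all features called under those weights. In MDA-MB-231 these were XBP1, SEL1L, ATF3 and VLDLR, and in MDA-MB-468 XBP1, HYOU1, MANF, ATF3, PSPH and AARS1. The weights gave anti-AL078604.2 replicate 2 in MDA-MB-468 a weight of 9.62 and its fellow arrays 0.48 and 0.39. In MDA-MB-231, anti-AL078604.2 replicate 2 had a weight of 3.43 and its fellow arrays 0.576 and 0.574. Leaving out 1 array gave 0 to 2 calls in SKBR3 (2 without anti-LINC01269 replicate 2, ATF6 and SARS1, beside 0.775% of all features), 0 to 2 in MDA-MB-231 (2 without anti-AL078604.2 replicate 1, XBP1 and ATF3, beside 1.79%) and 0 in MDA-MB-468. Quantile normalization moved the median of members in SKBR3 from 0.043 to 0.018. Over all alternatives that median ran from 0.018 to 0.056 in SKBR3, 0.0040 to 0.043 in MDA-MB-231 and -0.050 to 0.0092 in MDA-MB-468, with 1 change of sign. Deviations of same-numbered arrays from their group means correlated at -0.12 to 0.10, with 1 of 9 pairs over 0.1. Little shared effect of replicate number was thus seen, and the labels do not say whether same-numbered arrays were handled together. The replicate block gave 0 members and 0 features called in each comparison, with XBP1 in MDA-MB-231 at an adjusted p of 0.310. Of 112 pairs of a member and a comparison, 76 kept their sign in every alternative and 12 were called in at least 1. The filter at the 75th percentile kept 22 of the 28 members.

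Adjusted p and calls thus moved with the weighting or absence of single arrays, in groups of 3 arrays. The cause of the moves above was not tested.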
